A study of Homo sapiens with 6 samples.

Results

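The effect of a control transfection was examined in BxPC-3 cells, an established human pancreatic ductal adenocarcinoma cell line. Cells transfected with a negative control RNA duplex (NC, 2 libraries) were compared with untreated cells (parent, 2 libraries), so 4 of the 6 RNA-seq libraries of the series enter the comparison, chosen by their treatment label. The other 2 libraries came from cells transfected with miR-4711-5p and serve below as a second duplex. All 3 groups are the same cell line at a single time point, with no genetic change between them. The labels call the control NC-1. The methods of the study list an NC duplex and a further purchased control, and the labels do not say which of them NC-1 is. Cells that received the transfection reagent without RNA were not analysed here, so the reagent and the duplex cannot be told apart.

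A short RNA duplex that enters a cell can be loaded into an Argonaute protein. One strand then guides the protein to mRNAs that pair with its first bases, the seed, and such mRNAs are shortened of their poly(A) tails and degraded. Double-stranded RNA can also be recognised by cytosolic and endosomal sensors such as RIG-I (DDX58), MDA5 (IFIH1), PKR (EIF2AK2) and TLR3, which switch on interferon and NF-κB target genes. A negative control duplex is designed to have no intended target and is the usual reference for a microRNA mimic.

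Levels were given as FPKM, fragments scaled to transcript length and to library size, with scaling options that are not given. Median-of-ratios factors over all genes were 1.006 to 1.007 in the 6 libraries, and FPKM totals ran from 493145 to 550772. Of 26255 gene symbols, 12040 reached 1 FPKM on average and were tested with limma on log2(FPKM + 1). FPKM keeps no read number, and the steps between the lowest values put the depth of the other libraries at between 0.751 and 1.21 of parent 1. Libraries of the same group differed by a median of 0.0638 to 0.0805 on the log2 scale over these genes, and NC and parent libraries by 0.148 to 0.164. The labels do not state that the 2 libraries of a group came from separate cultures, so p-values measure only the spread between these libraries. An exact permutation test of 2 against 2 libraries cannot give a p-value below 0.333, so calls depend on a variance that limma borrows from other genes. The libraries looked like the line they were labelled as: KRT7, a ductal keratin, was at 1725 and 1663 FPKM in parent and 1842 and 1736 FPKM in NC, SMAD4 and CDKN2A, which are deleted in BxPC-3, were listed at 0 in all 6 libraries, and 3 of 29 markers of leukocytes, erythroid, stromal, acinar and endocrine cells passed the filter on low values.

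NC differed from parent in 3279 genes (27.2% of those tested) at a limma adjusted p under 0.05. Of these, 1456 genes (12.1%) were higher and 1823 (15.1%) were lower in NC. Most differences were small. A change of at least 1.5-fold on the log2(FPKM + 1) scale was reached by 163 higher genes (1.35%) and 135 lower genes (1.12%). The number of genes in each direction depended on how the libraries were scaled. With all libraries set to the same FPKM total, 2325 genes were higher and 1000 lower, and with median-of-ratios factors from genes of at least 10 FPKM, 1995 were higher and 1202 lower. The median log2 fold change of all genes moved from -0.01 to 0.06 and 0.04, which is less than 0.1. Values below are as deposited, and counts with equal FPKM totals or without a library are given beside those that moved most. Counts of gene lists below are read against the shares over all genes, 12.1% higher and 15.1% lower. The libraries are bulk RNA, in which fewer cells of a type and less RNA per cell cannot be told apart.

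The 10 largest rises were taken among called genes of at least 10 FPKM, with no overlap between NC and parent libraries. They included secreted and inflammatory proteins. SPINK4, a secreted protease inhibitor of mucous epithelium, had 36.8 and 43.0 FPKM in parent and 104 and 117 FPKM in NC, a rise of 2.76-fold (1.45 on the log2 scale with a standard error of 0.09, and an adjusted p of 0.000371 by limma). MMP9, a gelatinase, went from 8.90 and 8.71 FPKM to 24.9 and 22.8 FPKM (2.71-fold). IL33, a nuclear alarmin cytokine, went from 6.51 and 6.43 FPKM to 15.3 and 15.5 FPKM (2.38-fold). CXCL8, the neutrophil chemokine interleukin-8, went from 5.24 and 8.75 FPKM to 15.3 and 16.4 FPKM, and CGA, the shared alpha subunit of glycoprotein hormones, from 6.68 and 6.52 FPKM to 14.6 and 15.6 FPKM. In each of these 5 genes both NC libraries lay above both parent libraries, which the choice of the genes fixes. The gap was wider than either pair.

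These genes did not follow a common pattern with the second duplex. With miR-4711-5p, SPINK4 had 29.5 and 32.0 FPKM, and IL33 had 5.62 and 6.90 FPKM, near or below parent, whereas CXCL8 had 60.3 and 67.9 FPKM and CGA had 45.9 and 42.3 FPKM, above NC. LMBR1L, which encodes a membrane receptor, went from 7.43 and 6.44 FPKM to 18.4 and 18.7 FPKM in NC and was at 17.1 and 16.2 FPKM with miR-4711-5p. GXYLT1, a xylosyltransferase of Notch glycosylation, went from 3.86 and 4.23 FPKM to 11.9 and 10.3 FPKM in NC and was at 5.47 and 5.26 FPKM with miR-4711-5p. LMBR1L was thus high with both duplexes and GXYLT1 mainly with NC.

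The other 3 of the 10 largest rises were short noncoding RNAs, whose FPKM are uncertain in libraries made from poly(A) RNA. SNORA5B, a small nucleolar RNA with an annotated length of 132 bases, was listed at 0 in both parent libraries and at 23.1 and 30.3 FPKM in NC. SNORD15B (146 bases) had 6.02 and 0 FPKM in parent and 32.2 and 21.2 FPKM in NC. RMRP, the RNA of the ribonuclease MRP (264 bases), had 36.3 and 47.1 FPKM in parent and 73.1 and 150 FPKM in NC, so its NC libraries differed from each other by about as much as from parent.

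**Figure D1:**
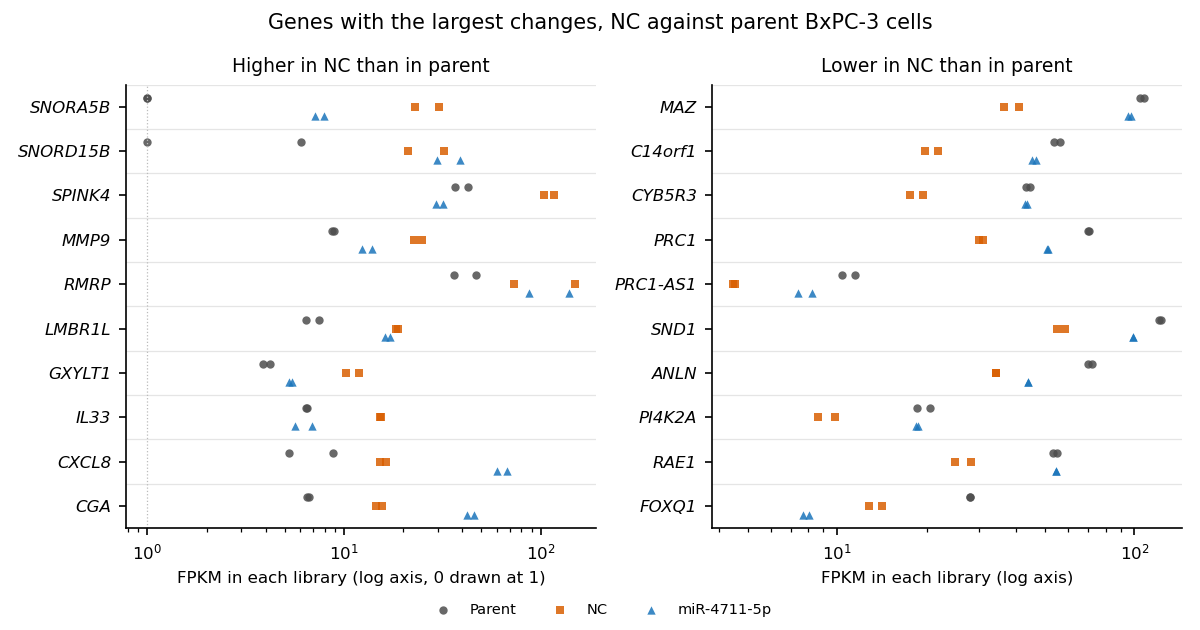
FPKM in each of the 6 libraries, on a log axis, for the 10 genes with the largest rise (left) and the 10 with the largest fall (right) in NC against parent. They were chosen among called genes whose NC and parent libraries do not overlap. Circles are parent, squares NC and triangles miR-4711-5p, 2 libraries each, and values of 0 (SNORA5B and 1 library of SNORD15B) are drawn at 1. In MAZ, CYB5R3, PI4K2A and RAE1 the miR-4711-5p libraries lie at or near the parent level, while NC is lower.

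The largest fall was that of MAZ, a zinc finger transcription factor, from 108 and 104 FPKM in parent to 36.6 and 40.9 FPKM in NC (2.74-fold lower, log2 fold change -1.43 ± 0.06 standard error, with an adjusted p of 7.23e-05 by limma). With miR-4711-5p it was at 97.3 and 95.1 FPKM. C14orf1 (ERG28), which encodes a scaffold of sterol synthesis enzymes, went from 53.6 and 56.0 FPKM to 19.8 and 21.9 FPKM (2.63-fold lower). CYB5R3, an NADH-cytochrome b5 reductase, went from 44.5 and 43.3 FPKM to 17.5 and 19.4 FPKM (2.38-fold lower). SND1, a nuclease-domain protein that binds small RNA complexes, went from 123 and 121 FPKM to 55.0 and 58.2 FPKM (2.15-fold lower). In all 4 the replicates of a group were close together and the groups lay far apart. These genes were chosen among those called and without overlap between the groups, so a separation was fixed by the choice.

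Genes of cell division were also among the 10 largest falls. PRC1, which bundles microtubules of the central spindle, had 70.6 and 69.6 FPKM in parent, 30.1 and 31.0 FPKM in NC and 50.8 and 51.4 FPKM with miR-4711-5p. Its antisense gene PRC1-AS1 overlaps it, and since the strand setting of the quantification is not given in the sources used here, its fall from 10.4 and 11.5 FPKM to 4.47 and 4.55 FPKM may hold reads of PRC1. ANLN (anillin), a scaffold of the cytokinetic ring, had 70.0 and 72.0 FPKM in parent, 34.3 and 34.2 FPKM in NC and 43.7 and 43.8 FPKM with miR-4711-5p. RAE1, an mRNA export factor, had 54.9 and 53.2 FPKM in parent, 24.9 and 28.2 FPKM in NC and 54.6 and 54.5 FPKM with miR-4711-5p. PI4K2A, a phosphatidylinositol 4-kinase, was 2.12-fold lower in NC, and FOXQ1, a forkhead transcription factor, went from 28.0 and 27.9 FPKM to 12.8 and 14.2 FPKM in NC and to 7.68 and 8.02 FPKM with miR-4711-5p.

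Short motifs in the 3′ UTRs of these genes were then examined. A 3′ UTR was found for 11190 of the tested genes (GENCODE annotation on GRCh37, the longest 3′ UTR of each gene), and 16113 motifs of 7 bases that occur in at least 100 of them were ranked by a score, the mean change of the genes that hold them, after trends on 3′ UTR length and GC content were removed, times the square root of their number. From the falling side, AGTACGT was in place 1 and GTACGTA in place 2. They overlap by 6 bases and together make AGTACGTA. These letters are shown in the 3′ UTRs of 8 genes with a large fall, 30 bases each in the 5′ to 3′ direction of the mRNA, with the match in capitals.
C14orf1 (chr14:76117704-76117733, minus strand): gtatataacatGTACGTAcaatttaaagaa
CYB5R3 (chr22:43015555-43015584, minus strand): tgagccttcagAGTACGTcctgcctggcac
PRC1 (chr15:91509326-91509355, minus strand): tttactcatacAGTACGTgtcctgttttta
SND1 (chr7:127732616-127732645, plus strand): ggcccaataaaatAGTACGTgctgtctgca
PI4K2A (chr10:99435744-99435773, plus strand): atgtagaaattGTACGTAatgtatttaaat
FOXQ1 (chr6:1314572-1314601, plus strand): cccccatccgtGTACGTAtgtggcatttcc
AMMECR1 (chrX:109438694-109438723, minus strand): ctcttggaaatAGTACGTActttgctttgg
ZFYVE21 (chr14:104199367-104199396, plus strand): gctgagcttggAGTACGTgtggtcaccagg

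The first 6 of these genes are among the 10 largest falls, and AMMECR1 and ZFYVE21 were chosen after their values were seen. AGTACGT is the reverse complement of the seed, bases 2 to 8, of the antisense strand of the NC duplex in the methods of the study, and GTACGTA is the match to bases 2 to 7 followed by an A, so they are the forms known as 7mer-m8 and 7mer-A1, and AGTACGTA is the 8mer. Whether NC-1 is that duplex is not stated in the labels. Because the motifs were picked from the same contrast, the changes of the genes that hold them are a description and were not tested, and the part of the strand in them was not tested.

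The change was graded by the form of the match. The median log2 fold change in NC was -0.13 in the 66 genes with the 8mer, -0.08 in the 235 genes with AGTACGT alone, -0.06 in the 145 genes with GTACGTA alone and -0.01 in both the 487 genes with only the shared 6 bases GTACGT and the 10257 genes with none. Of the 66 genes with the 8mer, 21 were called lower and 0 higher. The largest rise among these 66 was 2.06 on the log2 scale and was not called. Of the 446 genes with any 7mer or 8mer, 30.04% were called lower and 6.95% higher, beside 15.2% and 12.5% of the 10744 genes without. Read from the other side, a 7mer or 8mer was present in 26 of the 121 genes with a 3′ UTR that were called at least 1.5-fold lower (21.5%), in 2.25% of those called higher and in 3.99% of all. The 3′ UTRs with a 7mer or 8mer were longer, with a median of 3600 bases beside 1756 bases in those without. Between miR-4711-5p and parent, a comparison without the NC libraries, the medians were 0.00 with a 7mer or 8mer and -0.02 without.

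**Figure D2:**
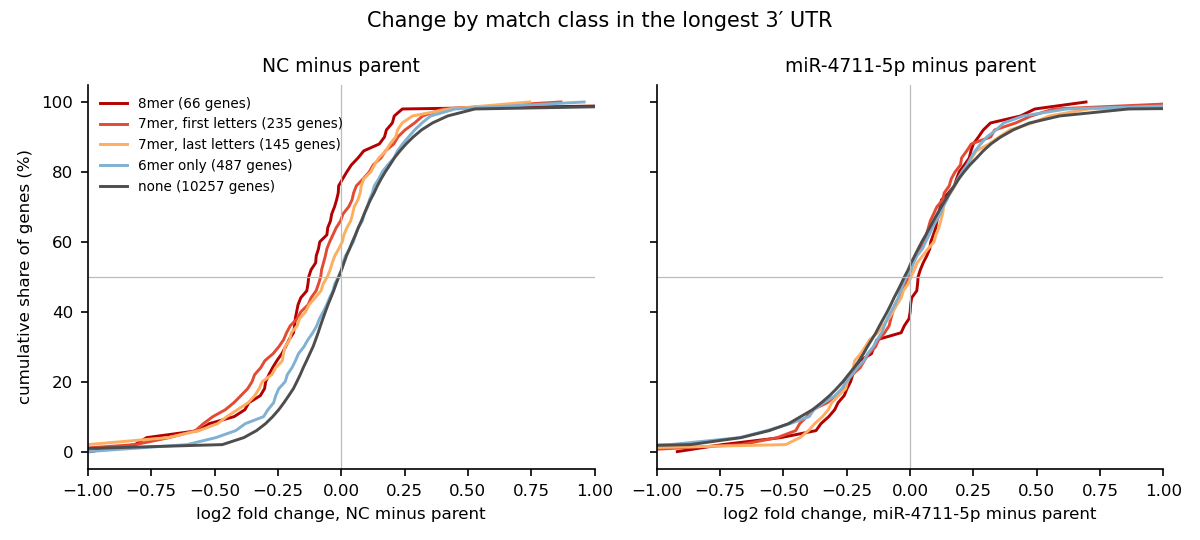
Cumulative share of genes (percent) against the log2 fold change, by the form of the match in the longest 3′ UTR, for NC minus parent (left) and miR-4711-5p minus parent (right), drawn from percentiles and cut at -1 and 1. On the left the lines of the 66 genes with an 8mer and of both 7mer classes lie to the left of the 10257 genes with none, with medians of -0.13, -0.08 and -0.06 beside -0.01, and on the right the lines run close together.

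Among genes with a 7mer or 8mer, 20 were at least 1.5-fold lower in NC and at 10 FPKM or more in parent. Their median parent to NC ratio was 1.78, and genes on chromosome 8 were not counted. Of these 20, 17 were called higher than NC in the miR-4711-5p libraries and 1 was called lower, where 18.4% and 21.2% of all genes were called. These comparisons share the NC libraries, for whose low values the genes were chosen, and of all 135 genes at least 1.5-fold lower in NC 95 were higher with miR-4711-5p. Against parent, 9 of the 20 were called lower with miR-4711-5p. This comparison shares the parent libraries, for whose high values the genes were also chosen. The share over all genes in that comparison is not given here, and the 18.4% and 21.2% do not apply to it. AMMECR1, with the 8mer, had 18.9 and 19.1 FPKM in parent, 8.86 and 9.27 FPKM in NC and 11.5 and 10.1 FPKM with miR-4711-5p. HSPE1, the mitochondrial co-chaperonin HSP10, also has the 8mer, in a 3′ UTR of 206 bases, and had 210 and 222 FPKM in parent, 125 and 119 FPKM in NC and 202 and 219 FPKM with miR-4711-5p.

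Further genes of this set carry out varied functions. TNFSF10, the death ligand TRAIL, had 16.1 and 15.9 FPKM in parent and 8.91 and 8.94 FPKM in NC. GRPEL1, a nucleotide exchange factor of mitochondrial HSP70, had 52.6 and 52.1 FPKM in parent and 32.8 and 31.5 FPKM in NC. PHF6, a chromatin-associated protein, had 18.4 and 20.2 FPKM in parent and 11.7 and 10.6 FPKM in NC. TUBB3, the class III beta-tubulin, had 20.1 and 19.7 FPKM in parent and 11.2 and 12.4 FPKM in NC. GPX1, the abundant glutathione peroxidase, had 439 and 403 FPKM in parent and 269 and 285 FPKM in NC. FOXQ1 was the gene of the 20 that was lower still with miR-4711-5p.

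**Figure D3:**
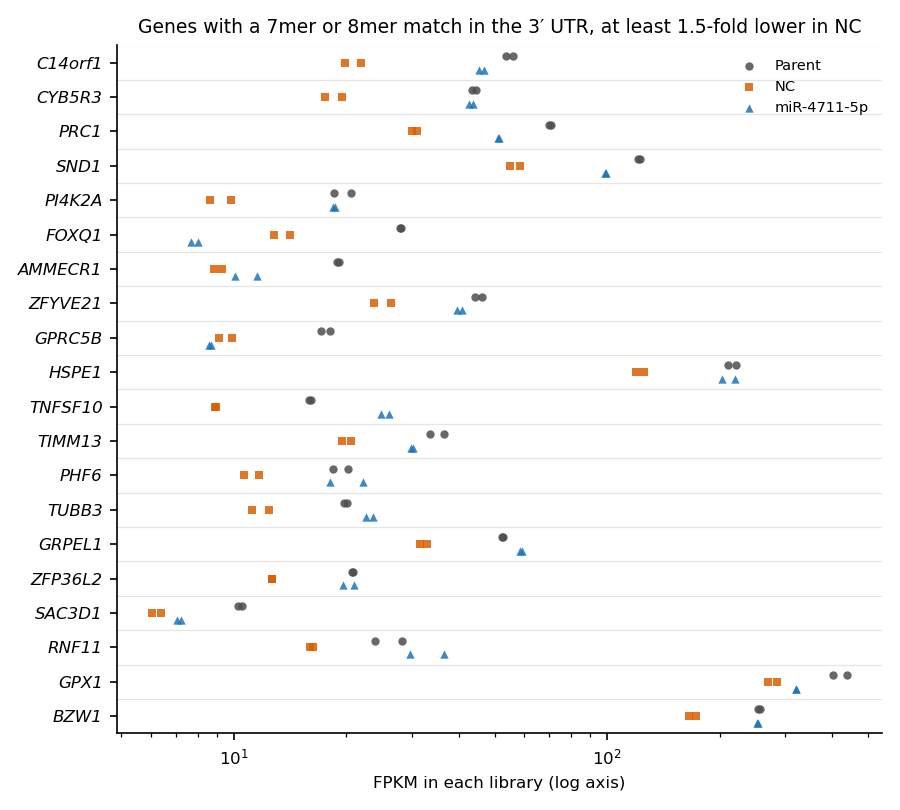
FPKM in each of the 6 libraries, on a log axis, for the 20 genes with a 7mer or 8mer in the 3′ UTR that were called at least 1.5-fold lower in NC and had 10 FPKM or more in parent. Circles are parent, squares NC and triangles miR-4711-5p, 2 libraries each, and in every gene both NC libraries lie below both parent libraries, which the choice of the genes fixes.

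From the rising side, the 10 first motifs included matches to seeds of common microRNAs, shown here as mature sequences from RefSeq (GRCh38.p14) with bases 2 to 8 in capitals. The motifs for miR-27 and miR-17 match bases 2 to 7 followed by an A, and the others bases 2 to 8.
hsa-let-7a-5p: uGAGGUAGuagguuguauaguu
hsa-miR-27a-3p: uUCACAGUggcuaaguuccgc
hsa-miR-200b-3p: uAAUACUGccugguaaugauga
hsa-miR-17-5p: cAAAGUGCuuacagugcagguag
hsa-miR-19b-3p: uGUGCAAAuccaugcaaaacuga

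CTACCTC, which pairs with the let-7 seed, was in place 1, and the 1566 genes that hold it had a median log2 fold change of 0.04 beside -0.02 in the genes without. CACTTTA, which pairs with miR-17 and its relatives miR-20 and miR-93, was held by 1961 genes with a median of 0.07 beside -0.03. CAGTATT (miR-200b, miR-200c and miR-429), CTGTGAA (miR-27) and TTTGCAC (miR-19) were in places 8, 9 and 10, and 3 motifs that resemble AU-rich elements, such as TATTTAT, in places 2, 3 and 6. Of all ranked motifs, 19.4% pair with the seed of at least 1 microRNA of the table. The medians in this paragraph were taken before the trends on the 3′ UTR that the ranking removes. With those trends removed, genes with the let-7 match had a mean change of 0.025, and genes with the miR-17 match one of 0.018. MicroRNA levels were not measured. The part of any microRNA or of 3′ UTR length in the differences between these medians was not tested.

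Machinery of small RNAs was higher in NC in 8 of 23 genes that passed the filter and lower in 1. Over all genes the shares were 12.1% higher and 15.1% lower. TNRC6A, a GW182 protein that links Argonaute to deadenylation, went from 12.7 and 13.3 FPKM in parent to 23.8 and 23.4 FPKM in NC (log2 fold change 0.81 ± 0.05 standard error, adjusted p = 0.000371 by limma) and was at 18.2 and 18.6 FPKM with miR-4711-5p. DCP2, a decapping enzyme, went from 3.24 and 2.99 FPKM to 5.81 and 5.35 FPKM. DICER1, which cuts precursors into mature microRNAs, went from 14.7 and 14.6 FPKM to 20.4 and 18.8 FPKM in NC, and had 12.4 and 12.1 FPKM with miR-4711-5p. AGO2, the slicing Argonaute, went from 16.9 and 16.2 FPKM to 21.2 and 20.03 FPKM (1.25-fold), and AGO4 rose from 1.95 and 2.01 FPKM to 2.76 and 2.82 FPKM. XPO5, the export factor of precursors, was the 1 gene that fell, from 20.6 and 21 FPKM to 17.1 and 18.5 FPKM. The transcripts of these genes are long, with a median length of 6250 bases, and long transcripts were higher in NC in general. With trends on length and GC content removed, 7 were higher and 5 lower, and without parent 1, parent 2 or NC 1 the higher ones were 5, 5 and 4.

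**Figure D4:**
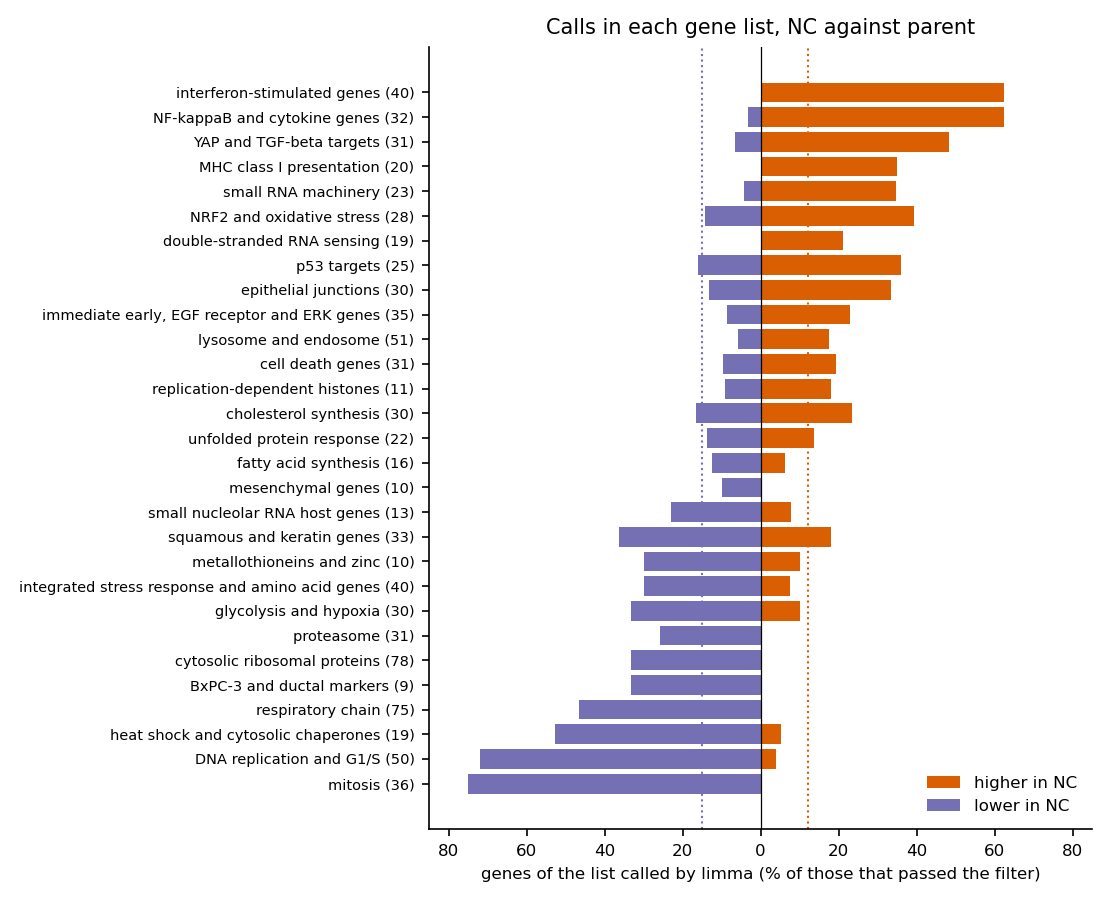
Share of the genes of each list that limma called higher (right) or lower (left) in NC than in parent, in percent of the genes that passed the filter on low values, whose number is in parentheses. Dotted lines are the shares over all 12040 genes, 12.1% higher and 15.1% lower, and lists with fewer than 9 genes past the filter are left out. Interferon-stimulated, NF-κB and YAP or TGF-β genes stand at the top, and mitosis and DNA replication at the bottom.

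Genes that sense double-stranded RNA gave few and small rises, where 12.1% of all genes were called higher and 15.1% lower. Of 19 genes past the filter, 4 were called higher and 0 lower, and without parent 1, parent 2, NC 1 or NC 2 1, 3, 2 and 1 were higher. DDX58 (RIG-I) went from 11.3 and 12.4 FPKM to 16.4 and 16.1 FPKM (0.43 on the log2 scale with a standard error of 0.07, and an adjusted p of 0.00635 by limma), and OAS2, OAS3 and the adaptor MAVS were the others, at 1.20-fold, 1.17-fold and 1.15-fold. IFIH1 (9.31 and 9.34 FPKM in parent, 10.1 and 10.6 FPKM in NC), EIF2AK2 (15.3 and 14.1 FPKM, 16.5 and 16.2 FPKM) and TLR3 (1.95 and 2.45 FPKM, 2.20 and 2.77 FPKM) did not pass the threshold (limma adjusted p = 0.107, 0.121 and 0.483). The count depended on the scale: 12 genes were higher with equal FPKM totals and 8 with median-of-ratios factors from genes over 10 FPKM. With such factors from all genes it stayed at 4, but these were 1.006 to 1.007 in every library and leave the values almost unchanged.

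Interferon-stimulated genes that were called were all higher in NC. All 40 genes of the list passed the filter, 25 were called higher in NC and 0 lower, 15 were not called, and the median log2 fold change was 0.25 beside -0.01 over all genes. Both NC libraries lay above both parent libraries in 28 of the 40, which held for 31.3% of all genes. With equal FPKM totals 27 were higher, and without parent 1, parent 2, NC 1 or NC 2 the counts were 11, 16, 12 and 15. The largest log2 fold change of the list was that of IFI44L, an antiviral effector, with 6.45 and 6.97 FPKM in parent and 12.7 and 12.9 FPKM in NC (log2 fold change 0.84 ± 0.06 standard error, adjusted p = 0.000437 by limma). CMPK2, a mitochondrial nucleotide kinase, had 0.948 and 0.920 FPKM in parent and 2.38 and 2.34 FPKM in NC, and IFI6 had 71.4 and 59.3 FPKM in parent and 99.8 and 94.3 FPKM in NC. IFI27 was 1.45-fold higher. IRF9, a transcription factor that carries the interferon signal, went from 26.7 and 26.0 FPKM to 36.5 and 38.5 FPKM (log2 fold change 0.49, limma adjusted p = 0.00161).

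The response was uneven within the list. MX1 was at 6.91 and 7.09 FPKM in parent and at 8.56 and 9.17 FPKM in NC (limma adjusted p = 0.0200). IFIT1 (10.3 and 9.43 FPKM in parent, 11 and 9.96 FPKM in NC) and ISG15 (181 and 167 FPKM, 180 and 177 FPKM) overlapped between the groups. The 95% interval of the log2 fold change was -0.10 to 0.26 for IFIT1 and -0.12 to 0.19 for ISG15. With miR-4711-5p the same genes were far higher: MX1 had 73.5 and 65.4 FPKM, IFIT1 had 81.4 and 72.7 FPKM and ISG15 had 793 and 708 FPKM. Between the 2 duplexes 38 of the 40 genes were called higher with miR-4711-5p.

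Promoters of these genes were compared in the RefSeq table (GRCh38.p14, 250 bases before to 50 after the start), which holds one for 9488 of the tested genes. The core of the interferon-stimulated response element, searched as GAAA, any 2 bases and GAAA on either strand, was present in 21 of 33 promoters of the list (63.6%) and in 2.75% of all. The promoter of IFI44L is shown, as the gene of the list with the largest change on the log2(FPKM + 1) scale. It holds the element in 2 places, marked in capitals. By the ratio of mean FPKM, CMPK2 rose more, 2.52-fold beside 1.91-fold for IFI44L. Genes that hold the element had log2 fold changes from -0.01 (BST2) to 0.84 (IFI44L), and IFIT1 and ISG15 were among them. A match of letters is not evidence of binding.
IFI44L (chr1:78620198-78620497, plus strand): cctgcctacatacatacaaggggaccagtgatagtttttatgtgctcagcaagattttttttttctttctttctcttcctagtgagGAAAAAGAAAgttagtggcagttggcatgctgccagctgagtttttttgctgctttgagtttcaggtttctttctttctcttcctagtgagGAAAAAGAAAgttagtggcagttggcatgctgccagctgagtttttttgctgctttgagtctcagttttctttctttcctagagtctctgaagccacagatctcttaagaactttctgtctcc

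MHC class I presentation rose in part, where 12.1% of all genes were called higher and 15.1% lower. Of 20 genes, 7 were called higher and 0 lower in NC, and without parent 1, parent 2, NC 1 or NC 2 the counts were 4, 1, 2 and 3. HLA-B went from 29.5 and 27.5 FPKM to 40.3 and 41.1 FPKM (0.50 on the log2 scale with a standard error of 0.07, and an adjusted p of 0.00410 by limma), NLRC5, the transactivator of the class I genes, from 1.71 and 1.52 FPKM to 2.36 and 2.65 FPKM, and the loading factor TAPBP was 1.19-fold higher. HLA genes are highly similar and polymorphic, and reads shared between them were not measured.

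NF-κB and cytokine genes were mostly higher in NC. Of 32 genes past the filter, 20 were called higher and 1 lower, with a median log2 fold change of 0.33. BIRC3, an inhibitor of apoptosis and NF-κB target, went from 2.30 and 2.46 FPKM to 6.24 and 6.19 FPKM (log2 fold change 1.09 ± 0.07 standard error, adjusted p = 0.000371 by limma). The chemokine CXCL10 went from 9.96 and 10.3 FPKM to 22.3 and 21.9 FPKM, and CCL20 from 1.03 and 1.08 FPKM to 2.63 and 2.30 FPKM. CXCL1 went from 7.96 and 8.83 FPKM to 12.3 and 14.2 FPKM, and IL6 from 0.0612 and 0.280 FPKM to 0.571 and 0.714 FPKM, a level at which few reads are counted.

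Feedback inhibitors of the pathway rose with its targets. TNFAIP3 (A20) went from 22.0 and 22.2 FPKM to 31.2 and 31.1 FPKM, and NFKBIA, which retains NF-κB in the cytoplasm, from 55.5 and 55.8 FPKM to 71.4 and 75.01 FPKM. The adhesion molecule ICAM1 went from 23.9 and 23.5 FPKM to 32.5 and 35.1 FPKM. Of the 5 NF-κB subunits, 1 was called higher, NFKB2. IL18 was the 1 gene of the list that fell, from 56.0 and 55.4 FPKM to 43.97 and 39.6 FPKM. With miR-4711-5p, 22 of the 32 genes were higher than with NC and 3 lower, and CXCL1 reached 89.3 and 99.4 FPKM, whereas ICAM1 stayed at 33.5 and 33.04 FPKM.

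Of 31 genes of YAP and TGF-β signalling, 15 were called higher and 2 lower, with a median log2 fold change of 0.26, and without NC 1 there were 10 higher. Among YAP targets 7 were higher and 1 lower of 9, and among TGF-β targets 3 were higher and 0 lower of 9. CTGF, a matricellular protein, went from 1.68 and 1.80 FPKM to 4.94 and 3.70 FPKM, F3 (tissue factor) from 646 and 667 FPKM to 938 and 943 FPKM, and AJUBA was the YAP target that fell, from 98.9 and 92.3 FPKM to 76.6 and 77.7 FPKM. INHBA, the activin A subunit, went from 4.27 and 4.15 FPKM to 9.29 and 9.28 FPKM (0.98 on the log2 scale with a standard error of 0.06, and an adjusted p of 0.000378 by limma). The receptor TGFBR2 went from 43.7 and 43.6 FPKM to 78.5 and 75.5 FPKM. YAP1 itself went from 46.4 and 49.4 FPKM to 61.4 and 61.0 FPKM.

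In the EGF receptor and ERK list, 8 of 35 genes were higher and 3 lower, and without parent 1, parent 2 or NC 1 the higher ones were 5 each time. The shares over all genes were 12.1% higher and 15.1% lower. Of 5 ligands 3 were higher. EREG (epiregulin) went from 14.4 and 15.2 FPKM to 29.3 and 30.2 FPKM (2.01-fold), HBEGF from 49.3 and 45.0 FPKM to 73.5 and 62.9 FPKM, and AREG (amphiregulin) from 5.77 and 6.02 FPKM to 9.91 and 7.51 FPKM. The receptor EGFR went the other way, from 68.2 and 63.2 FPKM to 56.3 and 53.9 FPKM. The counts were 15 and 1 with equal FPKM totals.

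Other large rises are given as single genes, chosen after their values were seen. PLAU (urokinase) went from 185 and 188 FPKM to 351 and 339 FPKM, ITGA5, the fibronectin receptor subunit, from 45.4 and 42.5 FPKM to 81.8 and 85.2 FPKM, and HMGA2, a chromatin protein and known let-7 target, from 123 and 130 FPKM to 221 and 242 FPKM. STC1 (stanniocalcin) went from 19.3 and 18.1 FPKM to 36.99 and 36.3 FPKM, and LYPD3, a urokinase receptor relative, from 34.7 and 31.1 FPKM to 63.1 and 67.3 FPKM. With miR-4711-5p, ITGA5 had 24.0 and 23.5 FPKM and STC1 17.0 and 16.7 FPKM, below parent, while PLAU had 412 and 410 FPKM.

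Of 28 genes of the NRF2 and oxidative stress list past the filter, 11 were called higher and 4 lower in NC (13 and 2 with equal FPKM totals), and the lower ones were 1 or 2 with a library left out. By role, 5 of 8 detoxification genes were higher and 0 lower, and 4 of 10 glutathione and thioredoxin genes were higher and 2 lower. AKR1C2, an aldo-keto reductase, went from 26.1 and 29.0 FPKM to 49.4 and 46.5 FPKM (log2 fold change 0.78 ± 0.07 standard error, adjusted p = 0.000792 by limma), AKR1C1 from 212 and 228 FPKM to 327 and 348 FPKM, and SLC7A11, the cystine transporter, from 24.1 and 24.7 FPKM to 41.1 and 40.3 FPKM. AKR1C genes are near-identical copies, and how reads were divided between them was not measured. GCLC, the catalytic subunit of glutathione synthesis, went from 37.7 and 39.5 FPKM to 55.3 and 57.8 FPKM, and KEAP1, which marks NRF2 for degradation, fell from 47.9 and 44.2 FPKM to 35.1 and 34.8 FPKM. With miR-4711-5p these targets were below parent, with 15.4 and 16.02 FPKM for AKR1C2 and 27.8 and 28.9 FPKM for GCLC.

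Targets of p53 gave 9 higher and 4 lower of 25 genes (11 and 0 with equal FPKM totals), and without parent 1, parent 2 or NC 1 the higher ones were 3, 5 and 3. CDKN1A (p21), an inhibitor of cyclin-dependent kinases, went from 98.1 and 96.7 FPKM to 129 and 135 FPKM (0.44 on the log2 scale with a standard error of 0.04, and an adjusted p of 0.00119 by limma). CCNG1 (cyclin G1) went from 25.5 and 29.6 FPKM to 44.8 and 44.2 FPKM, TNFRSF10B, a TRAIL receptor, from 42.9 and 41.1 FPKM to 58.0 and 61.1 FPKM, and MDM2, the p53 ubiquitin ligase, from 9.30 and 10.1 FPKM to 13.8 and 12.2 FPKM. Of the 8 DNA repair and metabolic targets past the filter, 2 were called, both lower. BxPC-3 is known to carry mutant p53, so these genes are listed as known targets and not as a readout of p53.

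**Figure D5:**
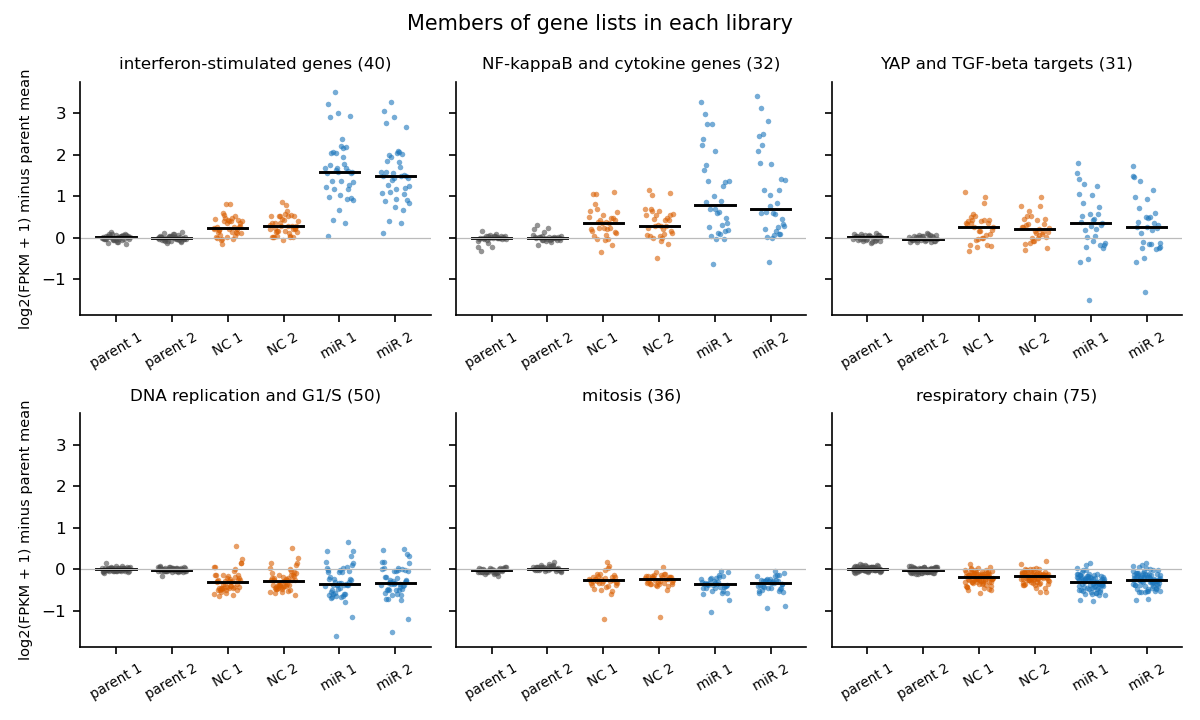
Change of each gene of 6 lists in each of the 6 libraries, as log2(FPKM + 1) minus the mean of the 2 parent libraries, with a point per gene past the filter (number in parentheses) and a black line at the median. NC libraries lie above parent in the interferon-stimulated, NF-κB and YAP or TGF-β lists (median log2 fold changes of 0.25, 0.33 and 0.26) and below it in the DNA replication, mitosis and respiratory chain lists (-0.32, -0.25 and -0.18).

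DNA replication genes fell broadly. Of 50 genes past the filter, 36 were called lower in NC and 2 higher, and the median log2 fold change was -0.32. With equal FPKM totals the counts were 29 and 3, and with each library left out in turn at least 24 were lower. All 5 genes of nucleotide supply, 14 of 15 of origin firing and the replication fork, and 12 of 16 of origin licensing were lower. MCM2, a helicase subunit, went from 87.2 and 85.1 FPKM to 55.1 and 57.3 FPKM (log2 fold change -0.61 ± 0.04 standard error, adjusted p = 0.000437 by limma), ORC1, of the origin recognition complex, from 24.0 and 22.9 FPKM to 15.2 and 15.7 FPKM, and TYMS, which makes thymidylate, from 40.4 and 38.5 FPKM to 25.2 and 27.3 FPKM. PCNA, the sliding clamp, went from 234 and 250 FPKM to 172 and 173 FPKM. The licensing factors CDC6 and CDT1 fell by 0.34 and 0.38 on the log2 scale.

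Of 14 regulators of the G1/S transition past the filter, 5 were lower and 2 higher, with a median log2 fold change of -0.13. CCNE1 (cyclin E1) went from 13.4 and 13.2 FPKM to 9.08 and 10.9 FPKM and E2F2 was among the lower ones. The 2 higher ones were CDK6, a cyclin D kinase, with 24.96 and 24.0 FPKM in parent and 36.9 and 35.1 FPKM in NC, and the kinase inhibitor CDKN1B (p27), with 17.3 and 16.02 FPKM and 19.9 and 20.5 FPKM. Between the 2 duplexes, 11 of the 50 replication genes were called higher and 11 lower with miR-4711-5p. These counts are near the shares over all genes, 18.4% higher and 21.2% lower, and the median log2 difference was 0.03.

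Of 36 mitotic genes, 27 were called lower and 0 higher, with a median log2 fold change of -0.25. With equal FPKM totals 16 were lower, and without parent 1, parent 2, NC 1 or NC 2 the counts were 14, 14, 13 and 16. CDC20, the activator of the anaphase-promoting complex, went from 190 and 190 FPKM to 125 and 135 FPKM (-0.54 on the log2 scale with a standard error of 0.05, and an adjusted p of 0.000907 by limma), KIF2C, a microtubule depolymerase, from 57.8 and 55.5 FPKM to 39.6 and 42.4 FPKM, and CCNB1 (cyclin B1) from 111 and 108 FPKM to 87.5 and 86.9 FPKM. PRC1, with the largest fall of the list, holds AGTACGT in its 3′ UTR. Without the genes that hold a 7mer or 8mer, 26 of the mitotic and 34 of the replication genes were lower.

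The promoters of these genes carry the known cell cycle elements. E2F sites (TTTCCCGC or TTTGGCGC on either strand) were present in 19 of 42 promoters of the replication list (45.2%) and in 3.89% of all, and the CHR element (TTTGAA on either strand) in 19 of 30 promoters of the mitosis list (63.3%) and in 9.38% of all. POLA1, the catalytic subunit of DNA polymerase alpha (9.05 and 9.14 FPKM in parent, 5.81 and 5.92 FPKM in NC), and CDC20 are shown as examples of each element, with the elements in capitals (GRCh38.p14). As above, a match of letters is not evidence of binding.
POLA1 (chrX:24693668-24693967, plus strand): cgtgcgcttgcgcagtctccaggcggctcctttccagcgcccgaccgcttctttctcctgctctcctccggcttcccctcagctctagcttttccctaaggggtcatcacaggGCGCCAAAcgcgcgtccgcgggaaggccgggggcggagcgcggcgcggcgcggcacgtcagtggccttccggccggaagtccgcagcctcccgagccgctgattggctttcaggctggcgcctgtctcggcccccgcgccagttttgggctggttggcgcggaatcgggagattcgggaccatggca
CDC20 (chr1:43358731-43359030, plus strand): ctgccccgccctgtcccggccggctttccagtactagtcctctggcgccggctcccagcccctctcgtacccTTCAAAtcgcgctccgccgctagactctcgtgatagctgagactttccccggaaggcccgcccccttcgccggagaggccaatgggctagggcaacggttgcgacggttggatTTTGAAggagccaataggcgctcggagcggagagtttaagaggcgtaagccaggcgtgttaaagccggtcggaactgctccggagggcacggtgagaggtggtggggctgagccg

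Of 75 nuclear genes of the respiratory chain, 35 were called lower and 0 higher, with a median log2 fold change of -0.18. With equal FPKM totals 17 were lower and the median was -0.10, and without parent 1 or NC 1 the counts were 15 and 23. UQCRC1, a core subunit of complex III, went from 160 and 147 FPKM to 103 and 112 FPKM (log2 fold change -0.52 ± 0.06 standard error, adjusted p = 0.00225 by limma), COX5A of complex IV from 245 and 248 FPKM to 181 and 169 FPKM, and ATP5G3 of the ATP synthase from 82.4 and 80.4 FPKM to 57.0 and 55.3 FPKM. The called share was 10 of 15 in the ATP synthase and 14 of 37 in complex I. Of 16 glycolytic enzymes, 9 were lower and 0 higher, among them ENO1 (1834 and 1762 FPKM in parent, 1274 and 1243 FPKM in NC) and GAPDH (5079.5 and 4991 FPKM, 4199 and 4244 FPKM). GAPDH, a usual reference gene of qPCR, thus differed by 1.19-fold, and ACTB, another, was at 3473 and 3344 FPKM in parent and 2977 and 2949 FPKM in NC. VEGFA, a hypoxia target, was higher, with 69.1 and 67.8 FPKM in parent and 93.7 and 95.2 FPKM in NC.

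Genes of protein synthesis, degradation and folding were also examined. Of 78 ribosomal protein genes, 26 were called lower and 0 higher, with a median log2 fold change of -0.13. With equal FPKM totals 8 were lower and the median was -0.04, so the size of this fall depended on the scale, and without parent 1, parent 2, NC 1 or NC 2 the counts were 3, 12, 11 and 17. RPS4X stood apart, with 1492 and 1523 FPKM in parent and 974 and 1066 FPKM in NC, and its 3′ UTR holds GTACGTA. Of 31 proteasome genes, 8 were lower and 0 higher (2 lower with equal FPKM totals), and without parent 1, parent 2, NC 1 or NC 2 1, 5, 4 and 3 were lower. Of 19 heat shock and chaperone genes, 10 were lower and 1 higher (7 and 2 with equal FPKM totals), and 4 were lower without parent 1 and 5 without NC 2. HSPB1 (HSP27) went from 666 and 618 FPKM to 353 and 423 FPKM (-0.73 on the log2 scale with a standard error of 0.09, and an adjusted p of 0.00224 by limma), HSPE1 was described above, and HSPA1A, whose reads can be shared with HSPA1B, was 1.26-fold lower. The unfolded protein response gave 3 higher and 3 lower of 22 (5 and 1 with equal FPKM totals), near the shares over all genes of 12.1% and 15.1%.

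Of the integrated stress response and amino acid list, 3 of 40 genes were higher and 12 lower, and without parent 1, parent 2, NC 1 or NC 2 the lower ones were 6, 7, 6 and 5. Over all genes, 12.1% were higher and 15.1% lower. By role, 6 of 8 genes of amino acid synthesis were lower and 0 higher, and transporters gave 2 higher and 2 lower of 7. The transcription factor ATF5 went from 51.6 and 49.3 FPKM to 33.1 and 30.3 FPKM, and SLC7A5, a transporter of large neutral amino acids, from 115 and 108 FPKM to 79.5 and 82.4 FPKM. DDIT3 (16.4 and 15.1 FPKM in parent, 15.1 and 15.8 FPKM in NC) and ATF3 (1.80 and 2.11 FPKM, 2.49 and 2.16 FPKM), the usual stress markers, were not called (limma adjusted p = 0.732 and 0.233). The counts were 6 higher and 5 lower with equal FPKM totals.

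Lipid and lysosome lists are read against the shares over all genes, 12.1% higher and 15.1% lower. In cholesterol synthesis 7 of 30 genes were higher and 5 lower (10 and 2 with equal FPKM totals), and without parent 1 the counts were 4 and 2. MSMO1, a sterol oxidase, went from 44.7 and 50.02 FPKM to 85.2 and 85.4 FPKM (log2 fold change 0.84 ± 0.06 standard error, adjusted p = 0.000464 by limma), INSIG1, which retains the sterol regulator SREBP, from 51.2 and 53.4 FPKM to 76.1 and 75.1 FPKM, and HMGCS1, of the mevalonate pathway, from 90.7 and 99.5 FPKM to 132 and 124 FPKM. Of 16 fatty acid genes 1 was higher and 2 lower (5 and 1 with equal FPKM totals), and the higher one was ACSL4. Of 51 lysosomal and endosomal genes, 9 were higher and 3 lower. The higher ones were 14 with equal FPKM totals and 3, 6, 3 and 5 without parent 1, parent 2, NC 1 or NC 2, and 8 were lower with length and GC trends removed. Of these genes CTSH, a cathepsin, was the largest fall, from 273 and 280 FPKM to 171 and 196 FPKM.

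Squamous and keratin genes, which BxPC-3 expresses at high levels, were lower in 12 and higher in 6 of 33 genes past the filter, and without parent 1 the counts were 7 and 2. KRT5, a basal keratin, went from 1445 and 1391 FPKM to 982 and 897 FPKM, KRT13 from 1405 and 1335 FPKM to 890 and 924 FPKM, and KRT6A from 694 and 660 FPKM to 424 and 430 FPKM (-0.66 on the log2 scale with a standard error of 0.04, and an adjusted p of 0.000419 by limma). KRT17 and the cornified envelope gene IVL went the other way, IVL from 3.76 and 3.42 FPKM to 8.49 and 6.17 FPKM. Keratins of 1 type are similar in sequence, and shared reads were not measured. SOX2, a transcription factor of squamous and stem-like cells, went from 11.4 and 10.97 FPKM to 7.24 and 7.80 FPKM. For KLF5, another regulator of epithelial growth, no difference was detectable, with 114 and 124 FPKM in parent and 115 and 120 FPKM in NC and a 95% interval of the log2 fold change of -0.19 to 0.14.

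Epithelial junction genes were higher in 10 and lower in 4 of 30, and without parent 1, parent 2, NC 1 or NC 2 the higher ones were 6, 7, 5 and 7. Cell death genes were higher in 6 and lower in 3 of 31, and the higher ones were 1, 2, 2 and 4 without the same libraries in turn. Metallothionein and zinc genes were higher in 1 and lower in 3 of 10, and small nucleolar RNA host genes in 1 and 3 of 13, and without parent 1 there were 0 lower in either list. The list counts of this paragraph stand beside 12.1% higher and 15.1% lower over all genes. Of 10 mesenchymal genes past the filter 0 were higher and 1 lower, which was VIM. Replication-dependent histones gave 2 higher and 1 lower of 11, and their mRNAs lack the poly(A) tail that the library kit selects. The nuclear noncoding RNAs MALAT1 (11.2 and 12.5 FPKM in parent, 18.2 and 20.2 FPKM in NC) and NEAT1 (41.9 and 41.7 FPKM, 59.8 and 55.3 FPKM) were both higher. Of 9 ductal markers 3 were called, all lower (KRT8, KRT19 and MUC1). CDH5, an endothelial cadherin, was at 0.995 and 0.929 FPKM in parent and 3.16 and 2.88 FPKM in NC, while PECAM1, VWF and KDR were below the filter.

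Transcript length and composition moved with the change. Over the 11795 genes with an annotated transcript, the log2 fold change had a Spearman correlation of 0.26 with length and -0.25 with GC content, and over all 12040 genes it had one of -0.32 with the level in parent. These are descriptions across genes, which share the libraries and are not independent. The median log2 fold change was -0.09 in the shortest transcripts (53 to 2361 bases), -0.04 in those of 2362 to 3754 bases, 0.01 in those of 3755 to 5584 bases and 0.07 in the longest (5585 to 44880 bases), 4 bins of about equal size. The respiratory chain genes have a median length of 1587 bases, and the replication genes of 3269 bases. With both trends removed from each library, 35 replication, 26 mitotic, 31 respiratory chain and 18 ribosomal protein genes were lower, and 24 interferon-stimulated, 21 NF-κB and 15 YAP or TGF-β genes were higher. The part of length and composition in the changes of single genes was not tested.

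Finally, genes that NC moved were compared between the 2 duplexes. These values share the NC libraries with the comparison against parent, and they are given side by side as a description. Over all genes tested, 39.6% were called between the duplexes, 18.4% higher and 21.2% lower with miR-4711-5p. Of the 1456 genes higher in NC than in parent, 654 (44.9%) were not called between the duplexes, 573 were lower with miR-4711-5p and 229 were higher still. Of the 1823 lower genes, 806 (44.2%) were not called, 722 were higher with miR-4711-5p and 295 lower. Among genes at least 1.5-fold lower in NC, 95 of 135 were higher with miR-4711-5p, 12 lower and 28 not called, and among those at least 1.5-fold higher in NC, 66 of 163 were lower, 35 higher and 62 not called.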

How the data were processed

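RNA was extracted with RNeasy Micro and sequenced as single-end reads of TruSeq stranded mRNA libraries on a HiSeq instrument. The authors aligned the reads to hg19. The submitters' processing notes name TopHat2 2.1.1, Bowtie2 2.3.5.1, SAMtools 1.2, Cuffdiff and Cufflinks 2.2.1. The methods of the study instead name other versions of TopHat, Bowtie2 and SAMtools, and Cuffnorm for the FPKM. The values the submitters deposited are FPKM per gene symbol for each library. The annotation, the strand setting and the options of the scaling between libraries are not given in the sources used here. A count model does not apply to FPKM, and the depth is known only relative to parent 1.

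Of 26255 symbols, 12040 with a mean of at least 1 FPKM were kept. Values were taken as log2(FPKM + 1), which understates the change of low genes, and limma 3.58.1 (R 4.3.3, trended and moderated, two-sided) was fitted to all 6 libraries with 3 groups, leaving 3 residual degrees of freedom. P-values were adjusted by Benjamini-Hochberg over all 12040 genes, with a threshold of 0.05. Groups came from the treatment labels. Genes were named by a rule: the 10 largest rises and 10 largest falls, up to 3 called genes of each list, and genes fixed by name. The largest rises and falls were taken among genes with at least 10 FPKM in the higher group. These genes also had to be called, with and without median-of-ratios factors from all genes. Their NC and parent libraries could not overlap. The rule gave 126 of the 181 genes examined singly, and 55 were chosen after their values were seen. A few of these genes are not reported here. The gene lists and the comparison itself were chosen with earlier results of these data known. Transcripts and 3′ UTRs came from GENCODE 44 on GRCh37, where 11126 symbols matched directly, 669 by an older symbol and 245 not at all. RefSeq GRCh38.p14 gave promoters and microRNAs. The test was checked on simulated data. Alternatives were another scaling, filter, pseudocount and variance model, the replicate block, and each library left out, and 3 were added after the data were seen (scaling on genes over 10 FPKM, length and GC trends removed, and genes with a 3′ UTR match left out).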

Additional observations from a re-analysis of the deposited data

How the results depend on the processing

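The 3279 genes called between NC and parent became 2165 without a filter on low values, 1355 to 2154 with a library left out, and 298 at 1.5-fold or more. Genes called higher (1456) became 2325 with equal FPKM totals, 622 to 956 with a library left out and 163 at 1.5-fold or more. Genes called lower (1823) became 1000 with equal FPKM totals, 1202 with median-of-ratios factors from genes over 10 FPKM, 1176 without a filter, 733 to 1198 with a library left out and 135 at 1.5-fold or more. Without parent 1, parent 2, NC 1 or NC 2 the calls were 1355, 2154, 1591 and 1944, and the lone library left in a group was then assumed to vary like the other groups. The 487 list genes called between miR-4711-5p and NC became 167 at 1.5-fold or more. The other alternatives kept these counts within 1.5 times. The cause of these shifts was not tested, except that fewer libraries leave fewer residual degrees of freedom.

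Replicate numbers are shared across groups, but same-numbered libraries did not deviate together (correlations of 0.06, 0.00 and -0.01), so the libraries share only a number. With a replicate block, 2864 genes were called, 1263 higher and 1601 lower.

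Of 2877 values of single genes under the alternatives, 2556 kept their direction and side of the threshold, 306 fell short of it, 6 newly passed it and 9 turned, all of the last in genes that were not called. The log2 fold change of ISG15 turned from 0.04 to -0.022 without parent 2 and was 0.096 without parent 1. That of DDIT3 turned from -0.03 to 0.048 with equal FPKM totals, 0.021 with factors from genes over 10 FPKM and 0.048 with length and GC trends removed, and ranged from -0.088 to 0.023 with a library left out. That of KLF5 turned from -0.02 to 0.062 with equal FPKM totals and 0.034 with factors from genes over 10 FPKM, and ranged from -0.083 to 0.038 with a library left out. Without read numbers, the counting error of genes near 1 FPKM could not be given.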
